A study of Mus musculus with 6 samples.

Results

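Imprinted genes are genes of which the copy inherited from 1 parent is expressed and the other is largely silent. A list of 47 mouse genes from the well-known imprinted domains was followed through bone marrow stromal cells that had or had not been fed dying thymocytes. Of the 47, 46 had a row in the deposited table of 53735 features, and 35 had enough counts to be tested. The remaining gene, Rtl1, was not analysed here.

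Most imprinted genes sit in clusters that share an imprinting control region, a stretch of DNA methylated on only the maternal or only the paternal copy. Many of these genes act on growth, pairing suppressors such as Igf2r, Grb10 and Cdkn1c with promoters of growth such as Igf2, and several of the long noncoding RNAs of the clusters silence neighbours on their own chromosome. In mesenchymal cells the group is known for Dlk1, which holds back fat-cell formation, and for the network of growth genes that is on in the embryo and turned down after birth. The usual expressed copy is given below as background only, since counts per gene do not tell the parental copies apart.

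Messenger RNA was sequenced from 6 libraries of mouse marrow stromal cells with the genotype wt, 3 from fed cultures and 3 from control cultures. The cells lacked lineage markers, CD45 and CD31, carried CD51, were expanded at 2% oxygen and were used at passage 2 or 3. Fed wells received 5000000 apoptotic thymocytes labelled with a fluorescent dye, were kept for 24 h at 5% oxygen, and gave the dye-positive cells that were sorted. Control wells received no target and were sorted too. The labels do not give the oxygen level of the control wells over those 24 h, nor the strain, age or sex of the animals. An effect of oxygen or of sorting on the dye therefore cannot be told apart from an effect of feeding.

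Total counts ran from 19069074 to 22410047 per library. Markers of the labelled cell type were present. The 12 stromal markers summed to 35916 to 38244 CPM in the fed libraries and 41380 to 43944 CPM in the control libraries. CPM are counts relative to 1000000 of the TMM-scaled library total. All 12 were tested, and 8 fell at an adjusted p under 0.05 in edgeR's quasi-likelihood test, against 19% of all genes tested. The 14 thymocyte markers summed to 2.99 to 4.49 CPM in the fed libraries and 2.98 to 3.42 CPM in the control libraries, and Cd3g, Rag2, Ptcra and Cd2 had no count in any library. Of the 14, 5 were at 0 in all fed libraries and 9 in all control libraries. The 10 macrophage markers summed to 15.2 to 17.0 CPM in the fed libraries and 9.82 to 11.1 CPM in the control libraries. Of these 10, 3 were tested, and Lyz2 alone rose (over all genes tested, 20.5% rose). None of the 10 was at 0 in all fed libraries, and 5 were at 0 in all control libraries. The 6 endothelial markers summed to 4.05 to 5.40 CPM in the fed libraries and 5.79 to 6.11 CPM in the control libraries, with Cdh5 and Emcn at 0 throughout. The part of these shifts in the results below was not tested. In bulk samples fewer cells of a type and less RNA per cell cannot be told apart.

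The start of Mest shows the sequence that imprinting acts on, because the gene has an imprinted and an upstream start and was the imprinted gene with the strongest called decrease. RefSeq (GRCm38.p6) windows of 250 bases before to 50 bases after a start are printed 5′ to 3′ on the gene's own strand, with every CpG, the dinucleotide that carries DNA methylation, in capitals. The first window, chr6:30737800-30738099 on the plus strand, holds 17 CpGs and has the hexamer TGCCGC, read on either strand, at bases 9 and 184 counted from its 5′ end. This hexamer is the core of the motif recognised in its methylated form by ZFP57, a zinc-finger protein that keeps methylation at imprinting control regions. The upstream window, chr6:30733256-30733555 on the plus strand, holds 8 CpGs and 0 hexamers.
Mest: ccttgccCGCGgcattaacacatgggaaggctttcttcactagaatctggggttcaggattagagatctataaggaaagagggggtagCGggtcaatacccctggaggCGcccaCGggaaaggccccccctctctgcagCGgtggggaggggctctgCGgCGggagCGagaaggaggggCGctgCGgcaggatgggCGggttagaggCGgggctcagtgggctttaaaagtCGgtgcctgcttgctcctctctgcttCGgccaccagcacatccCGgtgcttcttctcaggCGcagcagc
Mest, upstream start: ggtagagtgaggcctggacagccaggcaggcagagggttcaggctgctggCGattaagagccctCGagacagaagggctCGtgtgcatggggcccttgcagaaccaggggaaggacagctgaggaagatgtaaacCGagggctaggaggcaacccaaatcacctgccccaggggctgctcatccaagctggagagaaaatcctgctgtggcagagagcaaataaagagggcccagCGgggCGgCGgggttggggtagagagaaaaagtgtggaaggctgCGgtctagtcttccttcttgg

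Dio3, Peg3 and Zrsr1 are shown for contrast. Dio3 is the gene with the smallest adjusted p among those that rose. Peg3 has a start shared with a divergent neighbour, and Zrsr1 is a retrogene inside another gene. The Dio3 window, chr12:110278980-110279279 on the plus strand, holds 25 CpGs. The Peg3 window, chr7:6730370-6730669 on the minus strand, holds 13 CpGs, and 263 of its 300 bases lie in the Usp29 window of the opposite strand. The Zrsr1 window, chr11:22971755-22972054 on the plus strand, holds 10 CpGs. None of these 3 windows holds the hexamer, which says only that its letters are not in these bases.
Dio3: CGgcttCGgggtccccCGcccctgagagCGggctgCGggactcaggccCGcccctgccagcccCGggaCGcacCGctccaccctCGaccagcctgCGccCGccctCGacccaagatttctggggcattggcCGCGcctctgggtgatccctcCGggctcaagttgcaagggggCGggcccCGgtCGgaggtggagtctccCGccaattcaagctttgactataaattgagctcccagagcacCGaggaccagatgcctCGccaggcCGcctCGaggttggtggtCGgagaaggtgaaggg
Peg3: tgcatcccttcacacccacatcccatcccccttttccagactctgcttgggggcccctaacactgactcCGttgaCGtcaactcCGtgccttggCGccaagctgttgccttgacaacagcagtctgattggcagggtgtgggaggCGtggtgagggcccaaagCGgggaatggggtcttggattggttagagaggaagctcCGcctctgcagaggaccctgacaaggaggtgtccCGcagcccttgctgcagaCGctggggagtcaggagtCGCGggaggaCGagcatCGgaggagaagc
Zrsr1: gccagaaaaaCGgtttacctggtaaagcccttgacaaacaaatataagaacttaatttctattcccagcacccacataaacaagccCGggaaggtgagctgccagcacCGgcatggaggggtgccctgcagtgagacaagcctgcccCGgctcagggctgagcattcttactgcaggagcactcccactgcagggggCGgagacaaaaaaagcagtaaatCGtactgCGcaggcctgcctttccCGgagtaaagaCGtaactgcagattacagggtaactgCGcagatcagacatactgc

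RefSeq had 58 windows for 38 of the 47 genes, some of them overlapping. Impact, H19, Peg13, Trappc9, Sgce, Peg10, Cdkn1c, Klf14 and Rtl1 had no entry. The hexamer was in a window of 12 of the 38 genes (31.6%), against 13.1% of 27025 genes with a window. By window, 13 of 58 (22.4%) held it, against 11.6% of all 32851 windows. The median window held 13.5 CpGs, against 7.0 over all windows. Among genes with a window, the hexamer was in 0 of the 3 that rose, 2 of the 7 that fell (Mest and Grb10), 9 of 18 that were tested and not called, and 1 of 10 that were not tested.

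H19 and Mest, both lower in fed cells, carry microRNAs in their transcripts. The mature RefSeq forms are printed with the seed, bases 2 to 8, in capitals. No seed is shared among the 4.
mmu-miR-675-5p: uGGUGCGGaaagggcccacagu
mmu-miR-675-3p: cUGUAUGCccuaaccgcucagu
mmu-miR-335-5p: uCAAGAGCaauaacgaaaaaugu
mmu-miR-335-3p: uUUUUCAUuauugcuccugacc
The first pair, on chromosome 7, comes from H19, and the second pair, on chromosome 6, from Mest. The rows of Mir675 and Mir335 had 0 counts in all 6 libraries, and a library of polyadenylated RNA does not measure mature microRNAs.

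More imprinted genes fell than rose in fed cells. Of the 35 tested, 3 rose and 11 fell at an adjusted p under 0.05 in edgeR's quasi-likelihood test, and 21 were not called. With library totals as the only scaling, 5 rose and 10 fell. The called share in the first fit, 40.0%, was near the 39.5% called among all 13092 genes tested. By direction, 8.57% of the imprinted genes rose, against a background of 20.5%, and 31.4% fell, against a background of 19%. The median log2 fold change (fed over control) of the 35 was -0.15, against -0.01 over all genes tested. These are counts over a small list that was drawn up with earlier results of these data known, and they have no test of their own. The CPM ranges of the 2 groups did not overlap for 18 of the 35 genes (51.4%, against 49.1% of all genes tested), with 6 higher in fed libraries (17.1%, against 25.1%) and 12 lower (34.3%, against 24%). Called changes were small in size, from 0.11 to 0.75 on the log2 scale. The imprinted genes together took 0.277% of the counts in fed libraries and 0.287% in control libraries.

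**Figure D1:**
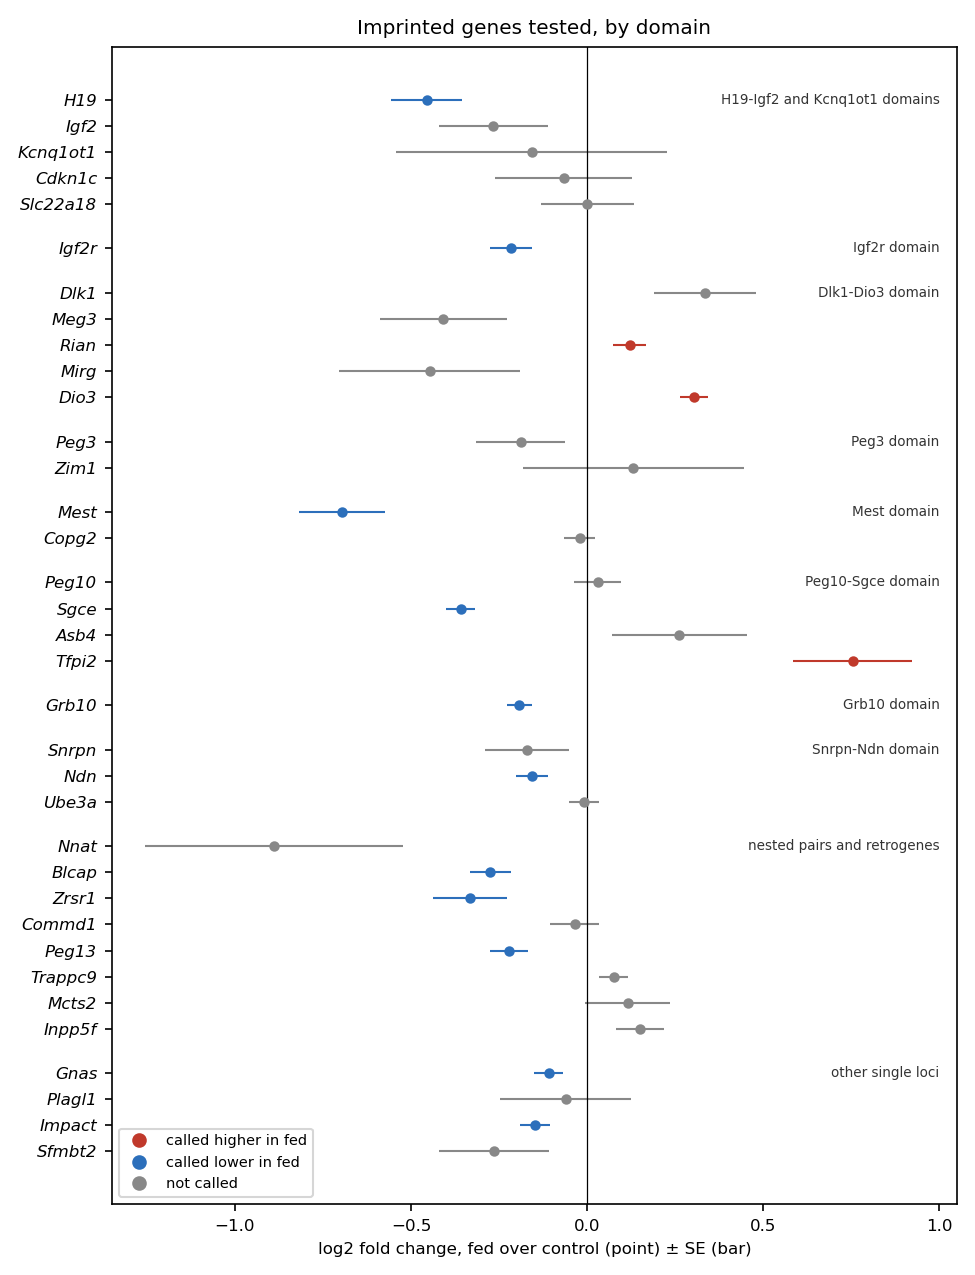
Log2 fold change of the 35 imprinted genes tested (x axis, fed over control, points with standard errors as bars), grouped by imprinted domain down the page and coloured by call. The 11 genes called lower are spread over most domains, and the 3 called higher are Tfpi2, Dio3 and Rian.

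By the copy usually expressed, 16 maternally expressed genes were tested, of which 2 rose and 4 fell, with a median log2 fold change of -0.03 (37.5% called). Of 18 paternally expressed genes tested, 1 rose and 6 fell, with a median of -0.16 (38.9% called). Both called shares were near the 39.5% of all genes tested. Whether these groups differ was not tested. Gnas, whose transcripts differ in the copy they come from, fell and is counted in neither.

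Calls were more frequent among abundant genes. Of the 18 imprinted genes that averaged 10 CPM or more, 11 were called (61.1%), against 48.2% of 8829 such genes in the whole table. Of the 14 between 1 and 10 CPM, 3 were called (21.4%), against 25.0% of 3282. Below 1 CPM, 3 imprinted genes were tested (Nnat, Zim1 and Kcnq1ot1) and none was called by edgeR, against 10.4% of 981. Nnat had an unadjusted p of 0.0243 in edgeR and was called by limma-voom.

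Per kilobase of annotated exon, Dio3 and Gnas led the list. The length joins the exons of all annotated transcripts of a gene. Genes with many alternative exons may therefore come out too low, and ranks between genes are approximate. By CPM alone, Gnas stood above Dio3, at 1356 against 299 in fed cells and 1463 against 242 in control cells. The exon lengths are 11186 bases for Gnas and 2030 bases for Dio3. Dio3 stood at 147 CPM per kb in fed cells and 119 in control cells, and Gnas at 121 in fed cells and 131 in control cells. Grb10 followed with 33.5 CPM per kb in fed cells and 38.3 in control cells. The growth factor Igf2 stood at 0.543 CPM per kb in fed cells and 0.652 in control cells, and its clearance receptor Igf2r at 14.3 in fed cells and 16.6 in control cells. Igf2 shares 62.1% of its 50-base words with other annotated genes and Igf2r none, so counts of Igf2 may have been lost or split, and the gap between the 2 levels is uncertain. Kcnq1ot1, whose annotated exon is very long, was the lowest gene tested at 0.00499 CPM per kb in fed cells and 0.00557 in control cells.

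**Figure D2:**
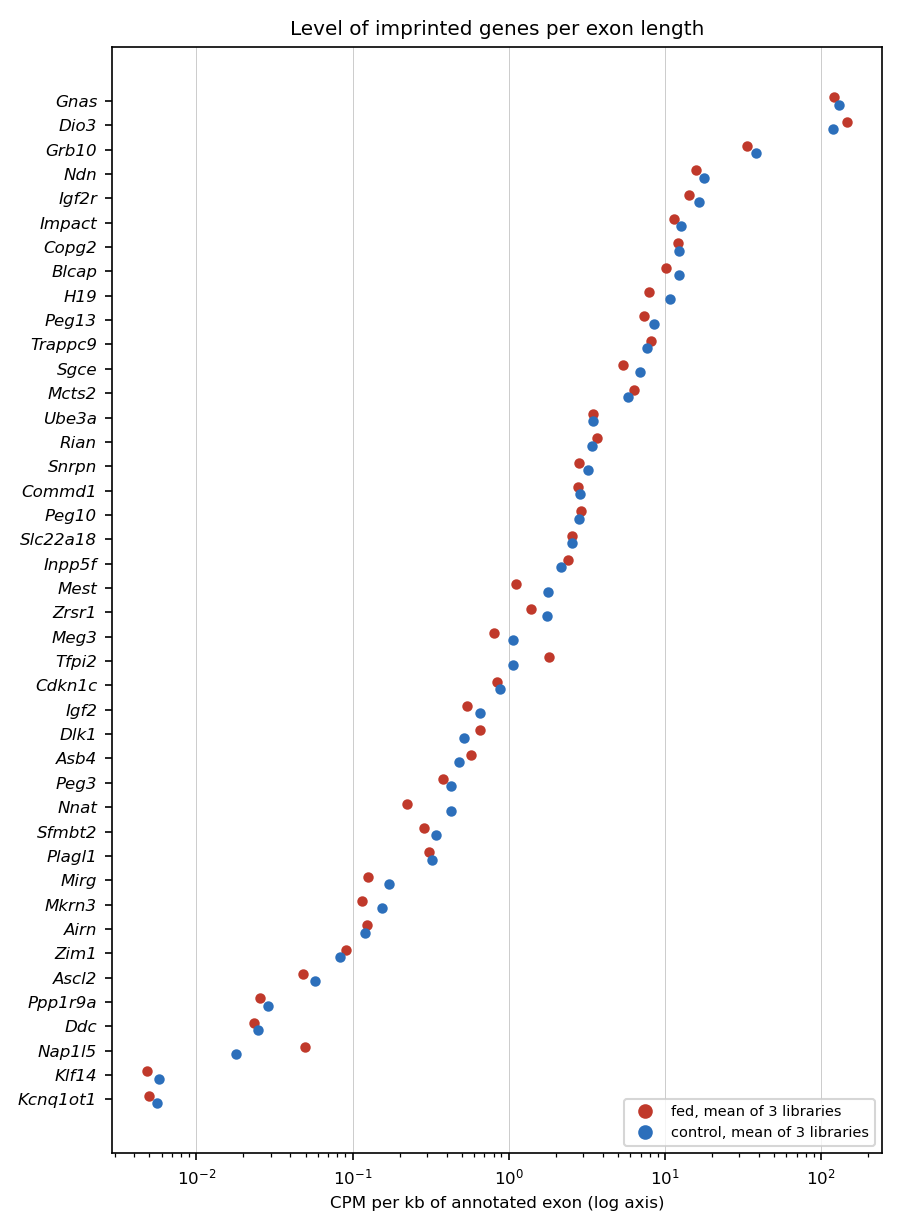
Mean level of the 42 imprinted genes with counts in both groups (x axis, CPM per kb of annotated exon, log scale). Each gene's fed point is drawn higher on the page than its control point, for position only, and genes are ordered by the control level. Magel2, Usp29, Phlda2 and Rasgrf1 had a group at 0 and are not drawn; Dio3 and Gnas lie highest in both groups.

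The Dlk1-Dio3 domain on chromosome 12 held 2 of the 3 genes that rose. Of its 5 genes tested, 40.0% rose, against 20.5% of all genes tested, and whether domains differ was not tested. Dio3, a deiodinase that inactivates thyroid hormone (110279068 to 110281097, plus strand, GRCm38), had 282, 312 and 302 CPM in fed libraries, against 237, 242 and 247 CPM in control libraries. Every fed library lay above every control library. The means were 299 ± 15.4 CPM in fed cells and 242 ± 5.09 CPM in control cells (SD, n = 3 each), a log2 fold change of 0.30 ± 0.04 (SE, edgeR adjusted p = 4.51e-06). Rian, a long noncoding RNA that hosts C/D small nucleolar RNAs (109603940 to 109661716, plus strand), had 64.1, 68.2 and 69.9 CPM in fed libraries, against 63.3, 63.6 and 59.0 CPM in control libraries. The groups did not overlap, but the lowest fed library lay close to the highest control library. The log2 fold change was 0.12 ± 0.05 (adjusted p = 0.0434), and the call was lost with DESeq2 (adjusted p = 0.120), with 2 other settings and without any 1 of 4 libraries (control 2 or 3, fed 2 or 3), with adjusted p of 0.0522 to 0.174 over these 7.

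The other transcripts of the domain were not called, although 2 of them showed no overlap. Dlk1, a transmembrane relative of the Notch ligands, had 3.72, 3.68 and 3.70 CPM in fed libraries, against 2.78, 3.21 and 2.79 CPM in control libraries. All fed libraries were higher, and the log2 fold change was 0.34 ± 0.15 (adjusted p = 0.073). Meg3, the maternally expressed noncoding RNA next to Rian, had 15.5, 15.8 and 12.7 CPM in fed libraries, against 24.2, 17.3 and 16.5 CPM in control libraries. All fed libraries were lower, and control library 1 stood above the other controls. The log2 fold change of -0.41 ± 0.18 had an adjusted p of 0.132. Without control library 1 it was -0.21 ± 0.09 (adjusted p = 0.0799), and leaving out each library in turn gave adjusted p of 0.0424 (without control library 3) to 0.281 (without fed library 3). Mirg, which hosts a cluster of microRNAs, had 0.843, 0.874 and 1.01 CPM in fed libraries, against 1.53, 0.992 and 1.21 CPM in control libraries, with overlap (log2 fold change -0.45 ± 0.26, adjusted p = 0.177). Meg3, Rian and Mirg are transcribed on 1 strand in 1 direction, and their point estimates did not share a sign. Meg3 shares 10.4% of its 50-base words with other annotated genes, so its count is less certain.

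The H19-Igf2 and Kcnq1ot1 domains on distal chromosome 7 had 1 called gene among 5 tested (20.0%, against 39.5% of all genes tested). H19, a maternally expressed noncoding RNA (142575529 to 142578143, minus strand), had 16.7, 19.8 and 21.8 CPM in fed libraries, against 30.0, 25.4 and 24.7 CPM in control libraries. Every fed library lay below every control library. It averaged 19.4 ± 2.6 CPM in fed cells and 26.7 ± 2.92 CPM in control cells (SD, n = 3 each), a log2 fold change of -0.46 ± 0.10 (SE, edgeR adjusted p = 0.00374). Its reciprocal neighbour Igf2, a fetal growth factor, had 3.47, 2.99 and 2.86 CPM in fed libraries, against 4.08, 3.12 and 4.00 CPM in control libraries. The groups overlapped (log2 fold change -0.27 ± 0.15, adjusted p = 0.185), and 62.1% of the 50-base words of Igf2 are shared, 61.2% with the overlapping Gm49394.

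In the neighbouring Kcnq1ot1 domain no gene on the list was called. Cdkn1c, the cyclin-dependent kinase inhibitor p57, had 1.49, 1.79 and 1.85 CPM in fed libraries, against 1.85, 1.84 and 1.69 CPM in control libraries (adjusted p = 0.814). The transporter Slc22a18 had 3.72, 4.37 and 4.80 CPM in fed libraries, against 4.59, 3.92 and 4.42 CPM in control libraries (adjusted p = 1.00). Both genes overlapped between groups. Cdkn1c shares 24.9% of its 50-base words with Gm44732, so its count is less certain. Kcnq1ot1 itself, the paternally expressed silencing RNA, stayed between 0.308 and 0.690 CPM in fed libraries and between 0.463 and 0.567 CPM in control libraries (adjusted p = 0.773). Phlda2 and Ascl2 were too low to test.

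Igf2r and Grb10, both dampers of insulin-like growth factor action, fell by small amounts. Igf2r, which carries IGF2 to lysosomes (chromosome 17, 12682406 to 12769664, minus strand), had 144, 126 and 129.9 CPM in fed libraries, against 161, 162 and 142 CPM in control libraries. Fed library 1 lay just above control library 3, so the groups overlapped. The log2 fold change was -0.22 ± 0.06 (adjusted p = 0.0141), and the call was lost without control library 1 (adjusted p = 0.0650) or fed library 3 (adjusted p = 0.0635). Grb10, an adaptor that dampens insulin and IGF1 receptor signalling (chromosome 11, 11930508 to 12038683, minus strand), had 305, 299.6 and 309 CPM in fed libraries, against 357, 349 and 338 CPM in control libraries. The groups were well apart, with means of 304 ± 4.57 CPM in fed cells and 348 ± 9.32 CPM in control cells (SD, n = 3 each; log2 fold change -0.19 ± 0.04, adjusted p = 0.00023). Airn, the RNA antisense to Igf2r, reached at most 0.529 CPM in fed libraries and 0.510 CPM in control libraries and was not tested, nor was Ddc, next to Grb10.

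**Figure D3:**
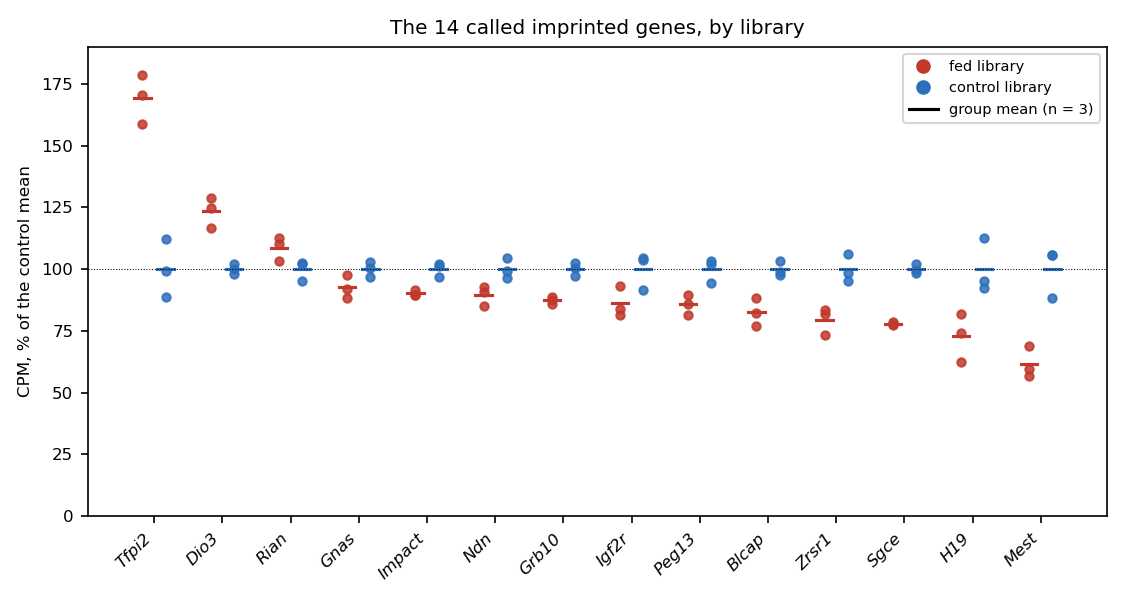
CPM of each of the 14 called imprinted genes in every library, as a percentage of that gene's control mean (y axis), with fed libraries to the left of control libraries and short lines for group means (n = 3 each). Fed and control libraries are separated for all but Gnas and Igf2r, and Tfpi2 and Mest lie farthest from their controls.

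The Mest domain on chromosome 6 gave the largest called decrease of the list. Mest, a membrane protein of the alpha/beta-hydrolase fold named for its expression in mesoderm (30723547 to 30748465, plus strand), had 4.01, 4.23 and 4.89 CPM in fed libraries, against 7.51, 7.51 and 6.27 CPM in control libraries. Every fed library lay below every control library. The means were 4.38 ± 0.456 CPM in fed cells and 7.09 ± 0.716 CPM in control cells (SD, n = 3 each), a log2 fold change of -0.70 ± 0.12 (SE, edgeR adjusted p = 0.00013). Copg2, a coatomer subunit that meets the end of Mest from the opposite strand, had 60.8, 63.2 and 63.5 CPM in fed libraries, against 65.0, 61.4 and 64.1 CPM in control libraries. These groups overlapped, with a log2 fold change of -0.02 ± 0.04 (adjusted p = 0.72). The 2 genes overlap by 912 bases, and 21.2% of the 50-base words of Mest are also in Copg2 exons, so their counts are less certain. Whether the counting used strand is not given in the sources used here. Klf14, near Copg2, was too low to test.

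In the Peg10-Sgce domain on proximal chromosome 6, 4 genes were tested, of which 1 rose, 1 fell and 2 were not called. These shares, 25.0% higher and 25.0% lower, stand against 20.5% and 19% of all genes tested. Sgce, the epsilon-sarcoglycan of the dystrophin-associated complex (4674350 to 4747207, minus strand), had 57.9, 56.8 and 57.4 CPM in fed libraries, against 75.2, 73.2 and 72.3 CPM in control libraries. The libraries were tight within each group and far apart between them, at 57.4 ± 0.526 CPM in fed cells and 73.6 ± 1.48 CPM in control cells (SD, n = 3 each). The log2 fold change was -0.36 ± 0.04 (adjusted p = 7.16e-07), the smallest adjusted p of the list. Peg10, a gene derived from a retrotransposon and needed in the placenta, starts 99 bases away on the other strand (4747306 to 4760517). It had 19.8, 18.3 and 19.8 CPM in fed libraries, against 19.7, 18.1 and 18.96 CPM in control libraries. Here the groups overlapped, and the log2 fold change was 0.03 ± 0.07 (adjusted p = 0.748).

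Tfpi2, a Kunitz-type inhibitor of serine proteases at the edge of the same domain (3962595 to 3988919, minus strand), had 3.32, 3.17 and 2.95 CPM in fed libraries, against 2.09, 1.65 and 1.84 CPM in control libraries. All fed libraries were higher. It averaged 3.15 ± 0.186 CPM in fed cells and 1.86 ± 0.217 CPM in control cells (SD, n = 3 each), the largest called increase of the list (log2 fold change 0.75 ± 0.17, adjusted p = 0.00128). Asb4, an ankyrin-repeat protein of the SOCS-box class, had 1.93, 2.62 and 2.25 CPM in fed libraries, against 2.22, 1.61 and 1.84 CPM in control libraries, with overlap (adjusted p = 0.3). Ppp1r9a reached at most 0.485 CPM in fed libraries and 0.510 CPM in control libraries and was not tested.

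The Snrpn-Ndn domain is the counterpart of the human Prader-Willi and Angelman region. Of its 3 genes tested, 1 was called (33.3%, against 39.5% of all genes tested). Ndn, the MAGE-family growth suppressor necdin (chromosome 7, 62346569 to 62350262, plus strand), had 55.8, 59.6 and 60.7 CPM in fed libraries, against 63.2, 64.9 and 68.5 CPM in control libraries. The groups did not overlap (log2 fold change -0.16 ± 0.05, adjusted p = 0.0108). The call was lost without control library 3 (adjusted p = 0.0540) or fed library 1 (adjusted p = 0.0574). Snrpn, a spliceosomal protein gene, had 5.95, 7.08 and 5.37 CPM in fed libraries, against 6.44, 7.13 and 7.16 CPM in control libraries (adjusted p = 0.268). Ube3a, a ubiquitin ligase whose imprinting is largely limited to neurons, had 70.5, 74.9 and 68.4 CPM in fed libraries, against 70.5, 72.5 and 72.1 CPM in control libraries (adjusted p = 0.889). Both overlapped, and both share 50-base words with other annotated genes (26.5% of those of Snrpn and 24.8% of those of Ube3a). Magel2 and Mkrn3 were too low to test.

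The Peg3 domain showed no call among its 2 genes tested, against 39.5% called over all genes tested. Peg3, a large zinc-finger gene, had 5.75, 4.60 and 4.80 CPM in fed libraries, against 5.88, 6.19 and 5.11 CPM in control libraries (log2 fold change -0.19 ± 0.13, adjusted p = 0.25). Zim1 ran from 0.598 to 0.942 CPM in fed libraries and from 0.602 to 0.790 CPM in control libraries. Both overlapped between groups. Usp29, which starts 147 bases from Peg3 on the other strand, had 0 counts in all 6 libraries. A count of 0 allows a level of up to 0.0464 CPM over the fed libraries and 0.0486 CPM over the control libraries, counting error only.

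Several imprinted genes lie inside a host gene, and 4 such pairs could be tested. In 2 of them the inner gene (Zrsr1, Peg13) fell and the host was not called. In the other 2 the host was called, Blcap lower and H13 higher, and the inner gene was not. Over all genes tested 39.5% were called, and no such share was computed for pairs. Zrsr1, a retrogene for a splicing-factor-like RNA-binding protein within Commd1 (chromosome 11, 22972005 to 22976496, plus strand), had 6.54, 6.44 and 5.77 CPM in fed libraries, against 8.34, 7.75 and 7.48 CPM in control libraries. The groups did not overlap (log2 fold change -0.33 ± 0.11, adjusted p = 0.0157). The call was lost with DESeq2 (adjusted p = 0.0733) and without control library 1 (adjusted p = 0.0680) or fed library 3 (adjusted p = 0.0768). Commd1, a regulator of copper handling, had 15.4, 16.8 and 17.4 CPM in fed libraries, against 17.1, 17.0 and 16.8 CPM in control libraries, with overlap (adjusted p = 0.711). Zrsr1 shares 7.13% of its 50-base words with Commd1, and Commd1 shares 5.35% of its own with Zrsr1, so both counts are less certain. Zrsr2, the X-linked gene from which Zrsr1 was copied, shares no 50-base word with it and averaged 24.1 ± 1.21 CPM in fed cells and 23.2 ± 0.473 CPM in control cells (adjusted p = 0.523).

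Peg13, a noncoding RNA inside Trappc9 (chromosome 15, 72805600 to 72810324, minus strand), had 34.7, 32.9 and 36.2 CPM in fed libraries, against 41.1, 41.8 and 38.1 CPM in control libraries. All fed libraries were lower (log2 fold change -0.22 ± 0.05, adjusted p = 0.00283). Trappc9, a trafficking-complex subunit, had 64.7, 64.7 and 63.6 CPM in fed libraries, against 60.1, 60.9 and 62.3 CPM in control libraries. Its fed libraries were all higher, but the difference was not called (log2 fold change 0.08 ± 0.04, adjusted p = 0.159).

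Blcap, a small membrane protein gene (chromosome 2, 157556362 to 157571274, minus strand), had 28.8, 30.8 and 33.1 CPM in fed libraries, against 37.1, 38.7 and 36.6 CPM in control libraries. The groups did not overlap (log2 fold change -0.27 ± 0.06, adjusted p = 0.000721). Nnat, the proteolipid gene neuronatin inside Blcap, had 6, 6 and 15 counts in fed libraries, against 16, 16 and 16 counts in control libraries. Its log2 fold change of -0.89 ± 0.36 was the largest of the list in size but was not called (adjusted p = 0.0589). It was -1.42 without fed library 3 (adjusted p = 0.0134) and -0.66 without fed library 2 (adjusted p = 0.216), the 2 ends of the range over left-out libraries.

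Mcts2, a retrogene inside H13, had 5.65, 5.47 and 6.25 CPM in fed libraries, against 5.98, 5.10 and 4.95 CPM in control libraries (adjusted p = 0.475). H13, a signal peptide peptidase gene, averaged 234 ± 6.18 CPM in fed cells and 213 ± 7.92 CPM in control cells (log2 fold change 0.14 ± 0.04, adjusted p = 0.00662). Inpp5f, an inositol phosphatase gene of which a short transcript is imprinted in brain, had 19.8, 20.0 and 20.2 CPM in fed libraries, against 19.4, 18.2 and 16.4 CPM in control libraries. Mcts2 overlapped and Inpp5f did not (log2 fold change of Inpp5f 0.15 ± 0.07, adjusted p = 0.0929). For Inpp5f the log2 fold change was 0.21 without control library 1 (adjusted p = 0.0371) and 0.09 without control library 3 (adjusted p = 0.345). Nap1l5 was too low to test.

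Within pairs of genes that overlap or share a start, the log2 ratio of their counts removes what scaling could change. For 4 of 7 pairs the ratios of the groups did not overlap. The CPM ranges of single genes did not overlap for 49.1% of all genes tested, and no such share was computed for pairs. In each of the 4 pairs 1 gene was called (Mest, Sgce, Zrsr1 or Peg13) and the other was not. The ratios are therefore not independent of those calls. The Mest to Copg2 ratio averaged -3.84 ± 0.12 in fed cells and -3.17 ± 0.17 in control cells (SD, n = 3 each), a difference of -0.67. The Peg10 to Sgce ratio averaged -1.57 ± 0.05 in fed cells and -1.96 ± 0.05 in control cells, a difference of 0.39. For Peg13 to Trappc9 the difference was -0.30 and for Zrsr1 to Commd1 it was -0.29. Each of these 4 had a two-sided exact permutation p of 0.1, the smallest that 3 libraries against 3 can give, and 0.175 after Benjamini-Hochberg adjustment over the 7 pairs. The ratios of Nnat to Blcap (difference -0.76, exact p = 0.2), Igf2r to Airn (-0.24, exact p = 0.4) and Mcts2 to H13 (-0.02, exact p = 1.0) overlapped. Since 3 against 3 cannot reach 0.05, the test cannot call any pair.

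**Figure D4:**
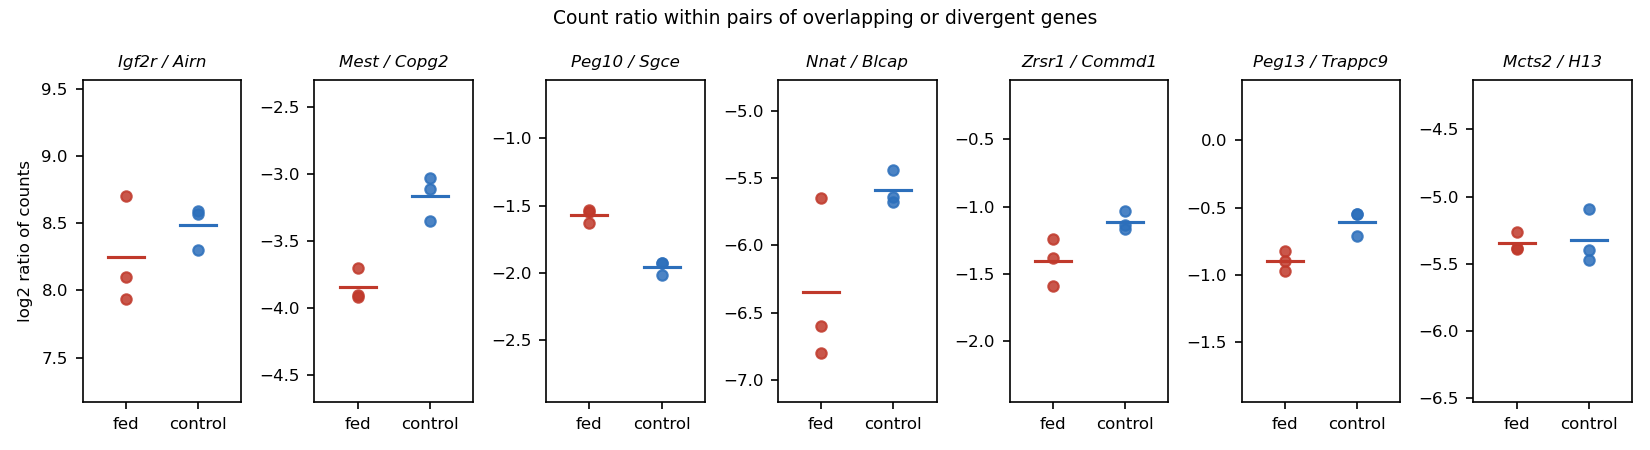
Log2 ratio of the counts of the first to the second gene in each of 7 pairs (y axis, all panels span the same range), for 3 fed libraries at the left and 3 control libraries at the right, with lines for the group means. The groups are apart for Mest / Copg2, Peg10 / Sgce, Zrsr1 / Commd1 and Peg13 / Trappc9 and overlap for the other 3.

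Among the genes outside these clusters, Gnas and Impact fell. Gnas, which encodes the stimulatory G-protein alpha subunit and further transcripts from upstream starts (chromosome 2, 174284320 to 174346744, plus strand), had 1294, 1344 and 1431 CPM in fed libraries, against 1415, 1505 and 1469 CPM in control libraries. The groups overlapped, and the log2 fold change was -0.11 ± 0.04 (adjusted p = 0.0441). Gnas shares 18.6% of its 50-base words with other annotated genes, so its count is less certain. The call was lost with library totals as the only scaling (adjusted p = 0.171), without robust estimation (adjusted p = 0.0545) and without any 1 of 4 libraries (control 2 or 3, fed 1 or 2), with adjusted p of 0.0842 to 0.203 over these 4. Impact, an inhibitor of the stress kinase GCN2, had 59.3, 58.1 and 58.0 CPM in fed libraries, against 65.6, 66.2 and 62.6 CPM in control libraries. Its groups did not overlap (log2 fold change -0.15 ± 0.04, adjusted p = 0.00836), and the adjusted p was 0.0513 without control library 2.

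Plagl1 and Sfmbt2 were not called. Plagl1, a zinc-finger transcription factor that acts on other imprinted genes, had 2.73, 2.71 and 1.85 CPM in fed libraries, against 2.92, 2.36 and 2.27 CPM in control libraries (adjusted p = 0.822). Sfmbt2, a Polycomb-group protein gene, had 2.58, 2.94 and 2.29 CPM in fed libraries, against 3.15, 3.12 and 3.11 CPM in control libraries. Plagl1 overlapped between groups and Sfmbt2 did not (log2 fold change of Sfmbt2 -0.26 ± 0.16, adjusted p = 0.195). Rasgrf1 was too low to test. In all, 11 genes of the list had too few counts for the test, none with a mean above 0.44 CPM over the 6 libraries or with more than 56 counts in all.

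Transcripts of many regulators of imprinted regions changed, with the list spanning DNA methylation, histone modification, CTCF and cohesin. Of its 31 genes 29 were tested, 10 rose and 9 fell (65.5% called, against 39.5% of all genes tested), and the median log2 fold change was -0.02. Most of the 29 averaged 10 CPM or more, a level at which 48.2% of all genes tested were called. Uhrf1, which guides maintenance methylation to newly copied DNA, averaged 102 ± 1.71 CPM in fed cells and 59.7 ± 1.86 CPM in control cells (SD, n = 3 each; log2 fold change 0.77 ± 0.04, adjusted p = 3.13e-11). Its partner Dnmt1, the maintenance methyltransferase, averaged 158 ± 8.58 CPM in fed cells and 113 ± 4.09 CPM in control cells (log2 fold change 0.49 ± 0.04, adjusted p = 2.92e-08). Hells, a chromatin remodeller needed for DNA methylation, and Ezh2, the Polycomb methyltransferase, rose by 0.76 ± 0.07 and 0.55 ± 0.05 on the log2 scale (adjusted p = 5.28e-07 and 1.1e-07). Rad21, a cohesin subunit, rose by 0.25 ± 0.04 (adjusted p = 2.72e-05). Smc1a and Smc3, also of cohesin, were not called (adjusted p = 0.601 and 0.986), nor was Ctcf (adjusted p = 0.176). Dnmt3a, Dnmt3b and Dnmt3l were not called either (adjusted p = 0.298, 0.802 and 0.0882).

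Tet3, an enzyme that oxidises 5-methylcytosine, averaged 15.3 ± 1.70 CPM in fed cells and 23.7 ± 1.08 CPM in control cells (log2 fold change -0.64 ± 0.08, adjusted p = 1.17e-06). Its relatives Tet1 and Tet2, picked out after their values were seen, also fell (log2 fold change -0.87 ± 0.17 and -0.67 ± 0.17, adjusted p = 0.000323 and 0.00596). Also picked out afterwards, Zfp57, whose motif is shown above, rose to 4.21 ± 0.272 CPM in fed cells, against 3.13 ± 0.398 CPM in control cells (log2 fold change 0.43 ± 0.14, adjusted p = 0.0231). Its call was lost with DESeq2 (adjusted p = 0.0962) and without control 2, control 3, fed 2 or fed 3 (0.0621 to 0.0789). Zfp445, likewise named afterwards and also known to keep imprints, averaged 41.2 ± 4.31 CPM in fed cells and 49.6 ± 0.852 CPM in control cells (log2 fold change -0.27 ± 0.06, adjusted p = 0.00154). Dppa3 and Ctcfl, germline factors, had 0 counts throughout. Methylation itself was not measured here.

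A second list of 43 imprinted or reportedly imprinted genes, most with weaker or tissue-limited imprinting, held more genes that rose than fell. Of 29 tested, 11 rose (37.9%, against 20.5% of all genes tested) and 7 fell (24.1%, against 19%), so that 62.1% were called, against 39.5%. The median log2 fold change was 0.14. Most of the 29 averaged 10 CPM or more, a level at which 48.2% of all genes tested were called. Whether the lists differ was not tested. The 6 with the smallest adjusted p were Bcl2l1, Tnfrsf23, Jade1, Atp10a, Tnfrsf22 and Pon3. Bcl2l1, which encodes the survival protein BCL-XL, averaged 55.1 ± 1.79 CPM in fed cells and 39.0 ± 2.09 CPM in control cells (SD, n = 3 each; log2 fold change 0.50 ± 0.05, adjusted p = 1.4e-07). Jade1, a chromatin scaffold gene, and Atp10a, a lipid flippase gene, rose by 0.44 ± 0.05 and 0.67 ± 0.10 (adjusted p = 5.78e-07 and 1.99e-05).

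Tnfrsf23 and Tnfrsf22, decoy receptors for the death ligand TRAIL, lie beyond Slc22a18 and Phlda2 on distal chromosome 7. Tnfrsf23 averaged 48.6 ± 0.619 CPM in fed cells and 34.4 ± 2.11 CPM in control cells (log2 fold change 0.50 ± 0.05, adjusted p = 2.21e-07), and Tnfrsf22 averaged 12.0 ± 0.119 CPM in fed cells and 8.42 ± 0.151 CPM in control cells (log2 fold change 0.51 ± 0.08, adjusted p = 4.99e-05). Pon3, an antioxidant lactonase gene beside the Peg10-Sgce domain, averaged 35.3 ± 1.02 CPM in fed cells and 42.5 ± 1.08 CPM in control cells (log2 fold change -0.27 ± 0.05, adjusted p = 0.00023). Named after their values were seen, Pon2 and Casd1 in the same stretch of chromosome 6 fell as well (log2 fold change -0.25 ± 0.05 and -0.22 ± 0.06, adjusted p = 0.000319 and 0.00341). Of the first list's genes there, Sgce also fell, Tfpi2 rose, Peg10 and Asb4 were not called and Ppp1r9a was not tested.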

How the data were processed

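The authors deposited raw counts per gene symbol, as whole numbers, for 6 libraries. The submitters' processing notes name Trimmomatic 0.36, STAR 2.6.0c, featureCounts of Subread 1.6.1, MultiQC 1.5 and build GRCm38. Not given in the sources used here are the annotation release, the strand setting and how reads that match several genes were treated.

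Counts were fitted in R 4.3.3 with edgeR 4.0.16: genes kept by filterByExpr defaults, TMM scaling, robust quasi-likelihood F-test, fed against control, Benjamini-Hochberg adjustment over 13092 genes, calls under 0.05. CPM are counts per 1000000 of the TMM-scaled total. Standard errors come from the F statistic. DESeq2 1.42.0 and limma 3.58.1 were alternatives. Called genes and those of at least 1 CPM are given by library, and other lists by their 6 smallest adjusted p. Coordinates and exon lengths come from GENCODE M21 (GRCm38). A 50-base word counts as shared when it also occurs, read on either strand, in exons of another annotated gene. Mest and Copg2, Cdkn1c and Gm44732, and Zrsr1 and Commd1 lie on opposite strands.

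The members and lists were chosen with earlier results of these data known. Nothing in the labels states that the 3 libraries of a group are separate cultures or animals, and a p-value here measures the spread between libraries only, possibly a technical one. Libraries of 19069074 to 22410047 counts limit genes near the filter.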

Additional observations from a re-analysis of the deposited data

How the results depend on the processing

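Calls and log2 fold changes from the fit over all genes were recomputed under 15 alternatives: 3 other scalings, 2 other filters, DESeq2, limma-voom, no robust estimation, a replicate block, and leaving out each of the 6 libraries. Nnat and Zim1 had values in 14 of them and Kcnq1ot1 in 13. Pair ratios, overlaps of ranges and levels per kb were not recomputed. Of the 14 called imprinted genes, 8 (H19, Dio3, Mest, Sgce, Tfpi2, Grb10, Blcap and Peg13) kept their call in all 15, and 6 (Gnas, Igf2r, Impact, Ndn, Rian and Zrsr1) lost it in at least 1. Meg3, Nnat, Dlk1 and Inpp5f gained one in at least 1. None of the 14 changed sign. With library totals as the only scaling, 5 imprinted genes rose and 10 fell, against 3 and 11, and the median log2 fold change of all genes moved to 0.025, against -0.0066; Dlk1 (adjusted p = 0.0495) and Inpp5f (adjusted p = 0.0390) were the 2 gained. Over all genes, 61.1% of calls were then higher, against 51.8%. Leaving out 1 library gave 2 to 4 imprinted genes higher and 9 to 10 lower. Without a filter Meg3 was called (adjusted p = 0.000472), as it was without robust estimation (adjusted p = 0.0170), and Nnat was called by limma-voom (adjusted p = 0.0312). The cause was not tested.

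The replicate block called 5848 genes, against 5175 without it, and 3 imprinted genes higher and 13 lower, adding Meg3 (adjusted p = 0.00013) and Nnat (adjusted p = 0.0378). Deviations of same-numbered libraries correlated at 0.101, 0.022 and 0.128, and nothing in the labels pairs them, so the numbers were not taken as pairs, although each fed library correlated best with the control of its own number (control library 2 did so with fed library 1). Depth limits the 11 genes not tested and the 3 tested under 1 CPM most.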
